A study of Mus musculus with 18 samples.

Results

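The 10 genes described here were Nefh, L1cam, Tns4, Met, Gpr141, Prkg2, Pkdcc, Alpl, Gstm2 and Afp. They were chosen by name because earlier readings of the same counts had shown a difference in their RNA between 2 lines of BV2 cells that lasted over the times sampled. The difference between the lines (the line gap) is therefore given as a description, without a test. Each of the 10 stood in both deposited tables of 55487 genes, and all 10 were among the 15996 genes that passed the filter on low counts. A gene high in 1 group passes that filter through that group, so the share that passed is not a result.

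BV2 is an immortalized mouse microglial line. The labels name 2 lines, NC and BAK1-KD. Neither abbreviation is spelled out, and how the BAK1-KD line was derived, or whether it is 1 clone, is not labelled. Cells were plated 12 h ahead of treatment and taken at control (0 h) or after 12 h or 24 h with oxyhemoglobin, hemoglobin in its oxygen-bound form, for which the labels give 10 mM. That dose is high for a protein, so its unit is uncertain. Each of the 6 groups had 3 libraries of total RNA, which makes 18. No untreated sample at 12 h or 24 h is labelled, so oxyhemoglobin and time in culture cannot be told apart. The labels do not tie the 3 libraries of a group to separate cultures; p-values therefore measure only how far these libraries spread, which may be technical.

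As background, microglia are the resident macrophages of the brain, and most of the 10 genes are better known from other cells. Nefh encodes the heavy neurofilament subunit of axons, L1cam a neural cell adhesion molecule and Tns4 a focal adhesion protein of the tensin family. Met is the receptor tyrosine kinase for hepatocyte growth factor, Gpr141 an orphan G protein-coupled receptor, Prkg2 a membrane-bound kinase activated by cyclic GMP, and Pkdcc a kinase of the secretory pathway. Alpl encodes the tissue-nonspecific alkaline phosphatase, Gstm2 a mu-class glutathione transferase and Afp alpha-fetoprotein, the fetal relative of serum albumin.

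Library totals ran from 4361313 to 6008810 counts. The gene named in the line label, Bak1, was not lower in the KD-labelled libraries: it had 25 counts over the 9 NC libraries (0 to 7 each) and 39 over the 9 KD-labelled ones (1 to 12 each). The library numbered 2 lay at the same end of the second principal component (14.7% of the variance) in each of the 6 groups. Of 12 microglia and macrophage markers 9 were tested. Spi1 (27132 counts over all libraries), Ptprc (12784) and Adgre1 (4118) had the most counts and P2ry12 the fewest (8). The other markers ran from 43 (Aif1) to 1190 (Tmem119). Among these were Tyrobp (187), Cx3cr1 (191), Itgam (525), Csf1r (670) and Cd68 (671). Tmem119 and Spi1 were higher in the KD-labelled libraries averaged over times (log2 1.33 and 0.38, adjusted p = 7.93e-05 and 0.0418, edgeR's quasi-likelihood test, Benjamini-Hochberg adjustment). The call for Spi1 was lost without KD 12 h replicate 1, KD 24 h replicate 1, KD control replicate 1 or 3, NC 12 h replicate 2 or 3, NC 24 h replicate 2, or NC control replicate 2 or 3 (adjusted p 0.0544 to 0.0937). The summed level of the list was 387 to 573 CPM in NC and 498 to 738 CPM in KD-labelled libraries, where CPM is the count scaled to a common library total after TMM normalization.

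**Figure D1:**
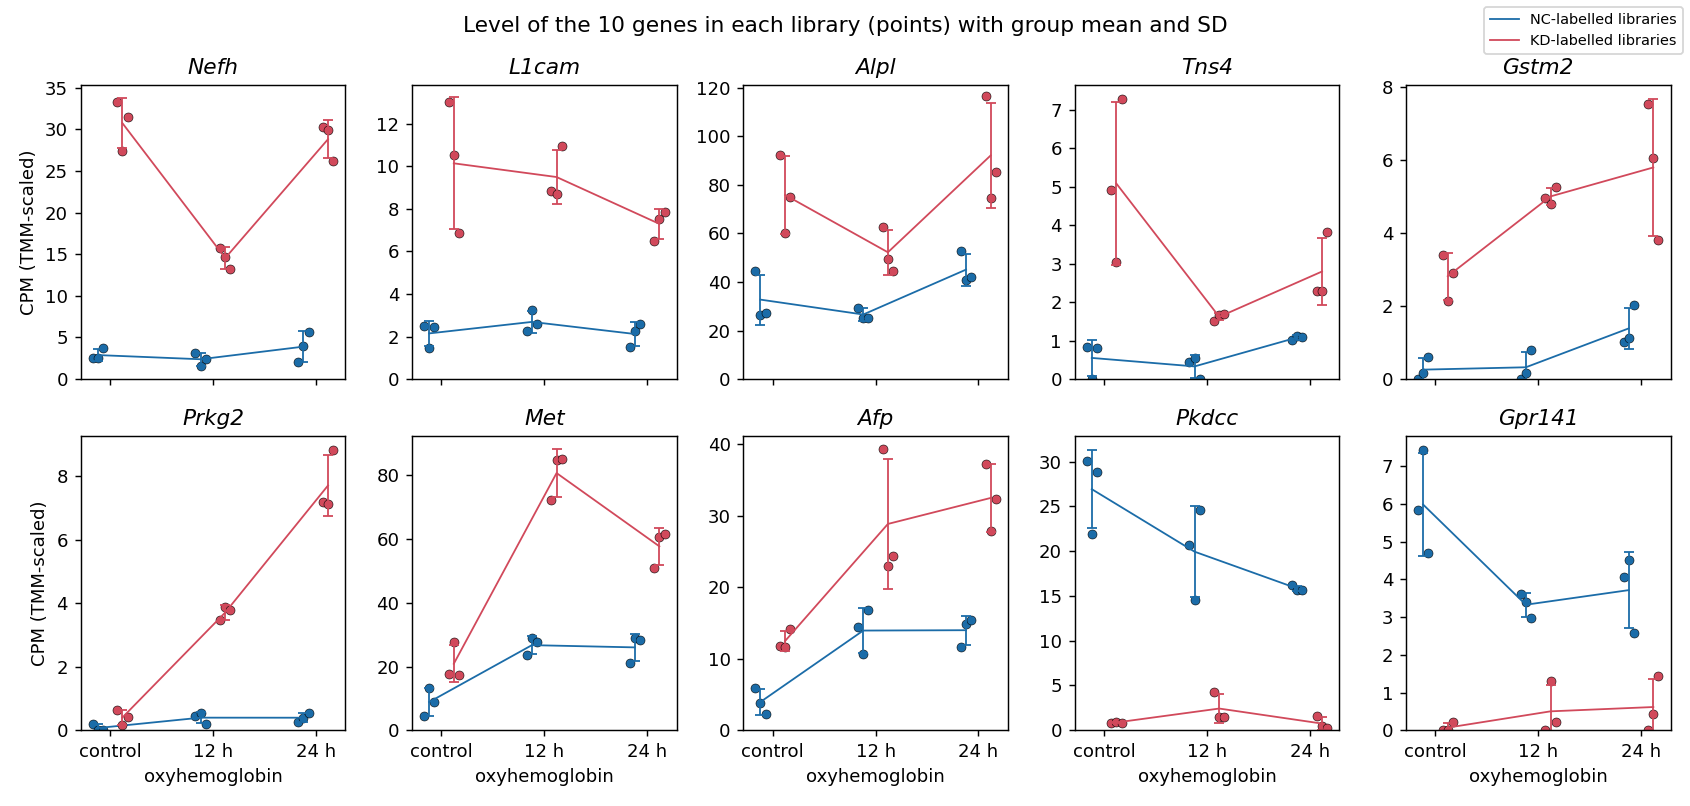
Level of each gene in CPM (vertical axes, linear, from 0) at control, 12 h and 24 h of oxyhemoglobin; points are libraries, lines join group means and bars are SD (n = 3). Pkdcc and Gpr141 were higher in NC and the other genes in KD-labelled libraries, while Prkg2 overlapped at control.

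The cytoskeletal and adhesion genes were higher in the KD-labelled line throughout, and Nefh fell there at 12 h. Nefh (ENSMUSG00000020396; chr11:4938754-4948064, minus strand, GRCm38, here and below with the gene's whole span in GENCODE M21, where all 10 are protein-coding) was at 2.50, 2.47 and 3.68 CPM in the NC control libraries, then 3.15, 1.62 and 2.38 after 12 h and 2.03, 3.95 and 5.71 after 24 h. In KD-labelled libraries it was at 33.3, 27.4 and 31.4 CPM at control, then 15.8, 14.6 and 13.2 after 12 h and 30.3, 29.9 and 26.2 after 24 h. The lowest KD-labelled library thus stood above the highest NC library at each time. The line gap of Nefh (KD-labelled minus NC, log2) was 3.41 ± 0.29 (SE) at control, 2.62 ± 0.31 at 12 h and 2.84 ± 0.28 at 24 h, or 10.6-, 6.14- and 7.18-fold. Against control, Nefh fell by 1.08 ± 0.24 (log2, SE) at 12 h in the KD-labelled line (adjusted p = 0.00284, edgeR's quasi-likelihood test, Benjamini-Hochberg adjustment), and all 3 libraries at 12 h lay below all 3 at control. With limma on log2(TPM + 0.1), TPM being the deposited abundance per gene length, this call was lost (adjusted p = 0.092). At 24 h its difference from control was -0.09 ± 0.23 (adjusted p = 0.889, edgeR), and in NC the differences were -0.29 ± 0.35 at 12 h and 0.48 ± 0.33 at 24 h. Ina, a neuronal intermediate filament gene listed with Nefh, had 9149 counts and a gap averaged over times of -0.02 ± 0.12 (adjusted p = 0.94, edgeR). It rose at 12 h in NC (0.85 ± 0.20, adjusted p = 0.00654, edgeR) and in the KD-labelled line (0.89 ± 0.20, adjusted p = 0.00366, edgeR). Ina was named after its values were seen. Nefl and Nefm, which encode other neurofilament subunits, had 0 counts in all 18 libraries. Among 9 neuronal markers, Rbfox3, Snap25 and Syt1 were also at 0 and 2 were tested; Tubb3, a neuronal tubulin, was higher in KD-labelled libraries (2.14, adjusted p = 1.12e-05, edgeR) and Gad1 was at -0.28. The summed neuronal level was 1.98 to 10.1 CPM in NC and 4.6 to 13.1 CPM in KD-labelled libraries, and its part in the Nefh gap was not tested.

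L1cam (ENSMUSG00000031391; chrX:73853778-73896105, minus strand), an immunoglobulin-family adhesion molecule, was higher in the KD-labelled line, and no effect of oxyhemoglobin on it passed the test. In NC it was at 2.50, 1.48 and 2.45 CPM at control, then 2.25, 3.23 and 2.58 after 12 h and 1.52, 2.26 and 2.58 after 24 h. In KD-labelled libraries it was at 13, 10.5 and 6.87 CPM at control, then 8.86, 8.69 and 10.9 after 12 h and 6.48, 7.53 and 7.86 after 24 h. Every KD-labelled library was above every NC library. The gap was 2.25 ± 0.33, 1.80 ± 0.32 and 1.74 ± 0.34 (log2, SE) at control, 12 h and 24 h, and its 4 effects of oxyhemoglobin ran from -0.48 to 0.35, none past the threshold (adjusted p 0.355 to 0.982, edgeR). L1cam exons shared 1.4% of their bases with Arhgap4 on the same strand.

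Tns4 (ENSMUSG00000017607; chr11:99065678-99089306, minus strand), a tensin, was at few counts. Its NC libraries held 4, 0 and 4 counts at control, then 2, 3 and 0 after 12 h and 4, 6 and 6 after 24 h. Those of the KD-labelled line held 23, 20 and 35 counts at control, then 7, 9 and 8 after 12 h and 13, 11 and 16 after 24 h. All KD-labelled libraries were above all NC libraries of the same time, and the gap was 3.22 ± 0.70, 2.21 ± 0.86 and 1.33 ± 0.62 (log2, SE) at control, 12 h and 24 h. Without NC control replicate 2 the first was 2.57, and without NC 12 h replicate 2 the second was 2.82. In the KD-labelled line Tns4 fell by 1.62 ± 0.55 at 12 h (adjusted p = 0.0455, edgeR), the highest adjusted p among the called effects. It was lost (adjusted p 0.0502 to 0.213) without any 1 of the KD 12 h or KD 24 h libraries, KD control replicate 1 or 3, NC 12 h replicate 1, or NC 24 h replicate 2 or 3. Epithelial markers were near 0: of 5, none was tested, Epcam, Krt18 and Krt19 had 0 counts, and the sum was 0 to 0.368 CPM in NC and 0 to 0.418 CPM in KD-labelled libraries.

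Met, the receptor for hepatocyte growth factor, and Afp, a secreted fetal serum protein, differed between the lines and also rose with oxyhemoglobin in both lines at both times. The 250 bases before each RefSeq start (GRCm38.p6) are printed because these genes moved together. They lie at chr6:17463707-17463956 (plus strand) for Met and chr5:90490464-90490713 (plus strand) for Afp. Capitals mark matches on either strand to the motifs searched: TATAAA, the TATA box; CCAAT, the box of that name; TGACTCA, the AP-1 site; GAGGAA, the core of ETS sites; and CACGTG, an E-box.
Met: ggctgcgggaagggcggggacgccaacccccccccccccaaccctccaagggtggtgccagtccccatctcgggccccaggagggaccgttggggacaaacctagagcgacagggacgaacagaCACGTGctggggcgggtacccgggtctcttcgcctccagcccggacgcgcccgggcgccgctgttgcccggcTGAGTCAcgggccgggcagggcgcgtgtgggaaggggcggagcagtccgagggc
Afp: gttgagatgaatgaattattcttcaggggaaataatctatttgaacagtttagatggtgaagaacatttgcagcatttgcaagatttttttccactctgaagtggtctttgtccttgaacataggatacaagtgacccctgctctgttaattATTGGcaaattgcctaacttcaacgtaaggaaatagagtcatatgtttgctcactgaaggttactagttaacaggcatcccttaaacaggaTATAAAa
The Met window held CACGTG and TGACTCA and 24 CG dinucleotides, a count at the 88th percentile of 32851 RefSeq windows, while that of Afp held TATAAA and CCAAT and 1 CG dinucleotide (7.9th percentile). Both Met motifs stood in the last 157 bases of its window, which lie past the gene's start in GENCODE M21. No motif was common to both windows. Over all windows of this length, TATAAA stood in 12.4%, CCAAT in 33.8%, TGACTCA in 4.46%, GAGGAA in 23.3% and CACGTG in 6.02%.

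Met (ENSMUSG00000009376; chr6:17463800-17573980, plus strand) was at 4.38, 13.4 and 8.78 CPM in NC control libraries, then 23.6, 28.9 and 27.6 after 12 h and 21.0, 28.8 and 28.2 after 24 h. In KD-labelled libraries it was at 17.7, 27.6 and 17.3 CPM at control, then 72.1, 84.8 and 85.1 after 12 h and 51.0, 60.7 and 61.5 after 24 h. Treated libraries were above the control libraries of their own line throughout, and the treated NC libraries reached the range of the untreated KD-labelled ones. In NC, Met rose by 1.57 ± 0.27 (log2, SE) at 12 h and 1.54 ± 0.27 at 24 h (adjusted p = 0.000286 and 0.000632, edgeR). In the KD-labelled line it rose by 1.94 ± 0.25 and 1.46 ± 0.25 (adjusted p = 6.48e-06 and 0.000337, edgeR). Both times share their control libraries. The line gap was 1.23 ± 0.27 at control, 1.59 ± 0.25 at 12 h and 1.14 ± 0.25 at 24 h. With limma on TPM the NC call at 24 h was lost (adjusted p 0.065 to 0.134), and on log2(TPM + 0.1) so was the KD-labelled call at 24 h (adjusted p = 0.0656).

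Afp (ENSMUSG00000054932; chr5:90490737-90508907, plus strand) stood at 5.84, 3.79 and 2.25 CPM in NC control libraries, then 14.4, 10.6 and 16.8 after 12 h and 11.6, 14.9 and 15.5 after 24 h. The KD-labelled libraries had 11.7, 11.6 and 14.2 CPM at control, then 39.3, 22.9 and 24.4 after 12 h and 37.3, 27.8 and 32.4 after 24 h. As with Met, treated NC libraries lay around the level of untreated KD-labelled ones. In NC, Afp rose by 1.81 ± 0.31 at 12 h and 1.83 ± 0.31 at 24 h (log2, SE; adjusted p = 0.000204 and 0.000306, edgeR). In the KD-labelled line it rose by 1.21 ± 0.26 and 1.38 ± 0.26 (adjusted p = 0.00213 and 0.000925, edgeR). The gap was 1.65 ± 0.31, 1.05 ± 0.26 and 1.21 ± 0.26 at control, 12 h and 24 h. Hepatocyte and visceral endoderm markers were near 0: of 6, none was tested, Alb, Apob and Serpina1a had 0 counts, and the sum stayed within 0 to 0.760 CPM in NC and 0 to 0.630 CPM in KD-labelled libraries.

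Prkg2 (ENSMUSG00000029334; chr5:98929773-99037351, minus strand), a cyclic GMP-dependent kinase, was near 0 in both lines at control and rose in the KD-labelled line at both times. NC libraries held 1, 0 and 0 counts at control, then 2, 3 and 1 after 12 h and 1, 2 and 3 after 24 h. Those of the KD-labelled line held 3, 1 and 2 counts at control, then 16, 21 and 18 after 12 h and 41, 34 and 37 after 24 h. The lines overlapped at control, where these counts are too few to show or exclude a gap, and were apart at 12 h and 24 h. In CPM the KD-labelled groups were at 0.403 ± 0.244, 3.71 ± 0.223 and 7.70 ± 0.962 (SD, n = 3). Prkg2 rose there by 3.21 ± 0.62 at 12 h and 4.25 ± 0.61 at 24 h (log2, SE; adjusted p = 0.000169 and 4.99e-06, edgeR). In NC the ratio of count rates was 6.28 at 12 h (exact 95% interval 0.762 to 289) and 6.43 at 24 h (0.781 to 296), each 6 counts against 1, with adjusted p = 0.182 and 0.22 (edgeR). These intervals cover counting error only. The gap was 3.14 ± 0.62 at 12 h and 4.16 ± 0.61 at 24 h, and at control the ratio was 5.89 (0.714 to 271; 6 counts against 1). The fitted gap at control, 2.19, was 4.05 without NC control replicate 1, which held the only NC control count.

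Pkdcc and Gpr141 were the 2 genes higher in NC. Their upstream windows, from the same RefSeq table, are printed because the 2 genes share a direction and lie far apart in CG content. They lie at chr17:83215033-83215282 (plus strand) for Pkdcc and chr13:19824258-19824507 (minus strand) for Gpr141.
Pkdcc: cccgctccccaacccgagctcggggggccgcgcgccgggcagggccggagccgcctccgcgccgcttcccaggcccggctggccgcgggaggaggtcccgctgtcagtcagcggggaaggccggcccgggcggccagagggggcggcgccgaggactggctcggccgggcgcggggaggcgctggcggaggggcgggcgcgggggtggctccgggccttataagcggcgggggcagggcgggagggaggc
Gpr141: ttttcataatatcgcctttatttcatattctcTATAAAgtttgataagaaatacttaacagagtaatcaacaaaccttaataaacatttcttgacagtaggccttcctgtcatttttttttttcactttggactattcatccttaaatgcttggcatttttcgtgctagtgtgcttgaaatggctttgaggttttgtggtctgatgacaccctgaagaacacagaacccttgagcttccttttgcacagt
Pkdcc had 36 CG dinucleotides (97.4th percentile) and none of the motifs, and Gpr141 had 2 (18.8th percentile) and TATAAA. The median over all windows was 6. Of the 10 genes 7 were matched in the table. CCAAT stood in 3 of them (Gstm2, L1cam and Afp), TATAAA in 2 (Gpr141 and Afp), and each of the other motifs in 1. The L1cam window, which also held GAGGAA, lay 15271 bases from the gene's GENCODE M21 start, inside its span.

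Pkdcc (ENSMUSG00000024247; chr17:83215292-83225070, plus strand), a secretory-pathway kinase, was at 30.0, 21.9 and 28.8 CPM in NC control libraries, then 20.7, 14.6 and 24.6 after 12 h and 16.2, 15.6 and 15.6 after 24 h. KD-labelled libraries had 0.854, 0.915 and 0.832 CPM at control, then 4.32, 1.48 and 1.47 after 12 h and 1.58, 0.419 and 0.238 after 24 h. No library of one line reached the range of the other. The gap was -4.91 ± 0.48, -3.05 ± 0.38 and -4.26 ± 0.52 (log2, SE), or 30.0-, 8.26- and 19.1-fold lower at control, 12 h and 24 h. None of the 4 effects of oxyhemoglobin passed the threshold: in the KD-labelled line 1.43 ± 0.54 at 12 h and -0.11 ± 0.64 at 24 h (adjusted p = 0.0617 and 0.952, edgeR), in NC -0.43 ± 0.30 and -0.76 ± 0.30 (adjusted p = 0.415 and 0.141, edgeR). With a replicate block, the KD-labelled value at 12 h (1.39, adjusted p = 0.023) and the NC value at 24 h (-0.74, adjusted p = 0.0124) passed; the latter also did with limma on log2(TPM + 1) (adjusted p = 0.0426). The KD-labelled value at 12 h also passed without KD 12 h replicate 2 or 3 or KD 24 h replicate 1 (adjusted p 0.0378 to 0.044), with DESeq2 (0.0439) and without a filter (0.0349), and was 0.75 without KD 12 h replicate 1. The KD-labelled value at 24 h was -1.33 without KD 24 h replicate 1 (adjusted p = 0.379, edgeR). The gaps were -3.73 at 12 h without KD 12 h replicate 1 and -5.45 at 24 h without KD 24 h replicate 1.

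Gpr141 (ENSMUSG00000053101; chr13:19749682-19824257, minus strand), the orphan receptor, had 28, 45 and 23 counts in NC control libraries, then 16, 19 and 15 after 12 h and 16, 24 and 14 after 24 h. In KD-labelled libraries it had 0, 0 and 1 count at control, then 0, 7 and 1 after 12 h and 0, 2 and 6 after 24 h. Every NC library was above every KD-labelled one. At control the ratio of KD-labelled to NC count rates was 0.0102 (exact 95% interval 0.000256 to 0.0583; 1 count against 96), and the fitted gaps were -2.59 ± 0.80 at 12 h and -2.67 ± 0.79 at 24 h. Single libraries carried these values: the gap was -4.67 at 12 h without KD 12 h replicate 2, and at 24 h -4.10 without KD 24 h replicate 3 and -2.0 without KD 24 h replicate 1. Against 1 count at control, the KD-labelled line had 8 counts at each later time, ratios of 8.68 (1.16 to 385) and 8.74 (1.17 to 388) that did not pass the test (adjusted p = 0.192 and 0.225, edgeR). In NC the differences were -0.85 ± 0.55 and -0.70 ± 0.54 (adjusted p = 0.376 and 0.545, edgeR).

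The enzymes Alpl and Gstm2 were higher in the KD-labelled line. Alpl (ENSMUSG00000028766; chr4:137741733-137796384, minus strand) was at 44.7, 26.2 and 27.4 CPM in NC control libraries, then 29.5, 25 and 25.4 after 12 h and 52.7, 40.7 and 42.0 after 24 h. KD-labelled libraries had 92.4, 60.1 and 75.1 CPM at control, then 62.6, 49.5 and 44.6 after 12 h and 117, 74.7 and 85.3 after 24 h. The lines did not overlap at any time, although 2 of the 3 KD-labelled libraries at 12 h lay within the NC range at 24 h. The gap was 1.21 ± 0.22, 0.97 ± 0.23 and 1.03 ± 0.22 (log2, SE) at control, 12 h and 24 h. Without a block none of the 4 effects passed (-0.54 to 0.46, adjusted p 0.106 to 0.505, edgeR); with the replicate block the KD-labelled line at 12 h (-0.53, adjusted p = 0.000611) and NC at 24 h (0.49, adjusted p = 0.00497) did. Of 4 osteoblast markers, which Alpl accompanies in bone, Runx2 was tested and did not pass; the sum was 6.54 to 13.5 CPM in NC and 5.78 to 11.7 CPM in KD-labelled libraries.

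Gstm2 (ENSMUSG00000040562; chr3:107981702-107986453, minus strand), a glutathione transferase, had 0, 1 and 3 counts in NC control libraries, then 0, 1 and 4 after 12 h and 4, 6 and 11 after 24 h. KD-labelled libraries had 16, 14 and 14 counts at control, then 23, 26 and 25 after 12 h and 43, 29 and 16 after 24 h. The lines were apart at each time, with gaps of 3.33 ± 0.84, 3.82 ± 0.77 and 2.03 ± 0.52 (log2, SE). The first was 4.6 without NC control replicate 3 and the second 5.35 without NC 12 h replicate 3. No effect passed; the nearest was NC at 24 h (2.36 ± 0.88, adjusted p = 0.0594, edgeR), which passed with the replicate block (2.36, adjusted p = 0.0242), without a filter (adjusted p = 0.0466) and without NC 12 h replicate 1 (adjusted p = 0.0465), NC 12 h replicate 3 (adjusted p = 0.0445) or NC control replicate 3 (3.61, adjusted p = 0.0324). Of the 50-base words of its transcript, 9.4% also occur in Gstm1 and the pseudogenes Gm12499 and Gm6665, so its counts are less certain than those of the other genes. Gstm1 had a gap of -0.85 (adjusted p = 0.191, edgeR) and Gstm2-ps1 one of 0.11 ± 0.20 (adjusted p = 0.79, edgeR), averaged over times.

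Counted together, 2 of the 10 genes rose in NC at 12 h (Met and Afp; 6.69% of all tested genes rose and 12.2% changed) and 2 at 24 h, again Met and Afp (4.66% rose, 7.57% changed). In the KD-labelled line 3 rose and 2 fell at 12 h (7.93% of tested genes rose, 8.06% fell, 16% changed), and 3 rose at 24 h (5.5% rose, 9.59% changed). These counts do not use the pairing of libraries with the same number, which passed its threshold within each line. With the replicate block the count in NC at 24 h was 5 of 10, against 3023 of all tested genes. In the KD-labelled line at 12 h the block called Pkdcc (1.39, adjusted p = 0.023) and Alpl (-0.53, adjusted p = 0.000611), which did not pass without it. There it called 4600 of all tested genes. The median size of the effects was 0.52, 0.90, 1.32 and 0.96 (log2) in NC at 12 h and 24 h and in the KD-labelled line at 12 h and 24 h, beside 0.34, 0.30, 0.37 and 0.32 over all tested genes. Some of the larger sizes rest on few counts: 6 against 1 for Prkg2 in NC and 8 against 1 for Gpr141 in the KD-labelled line. Counting error enlarges such sizes, so no stronger response is read from the medians. Libraries of the lines did not overlap for 9 of the 10 genes at control and for all 10 at 12 h and at 24 h. Over all tested genes 16.7, 16.6 and 17.2% did not overlap, and 2.06, 1.6 and 1.39% passed the test of the line gap. With the replicate block 1496, 1737 and 1440 genes passed in place of 330, 256 and 223. The lowest counts leaving out 1 library were 213 (without KD control replicate 3), 101 (without NC 12 h replicate 3) and 41 (without KD 24 h replicate 3). Nothing is read from this comparison, on which the genes were chosen.

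**Figure D2:**
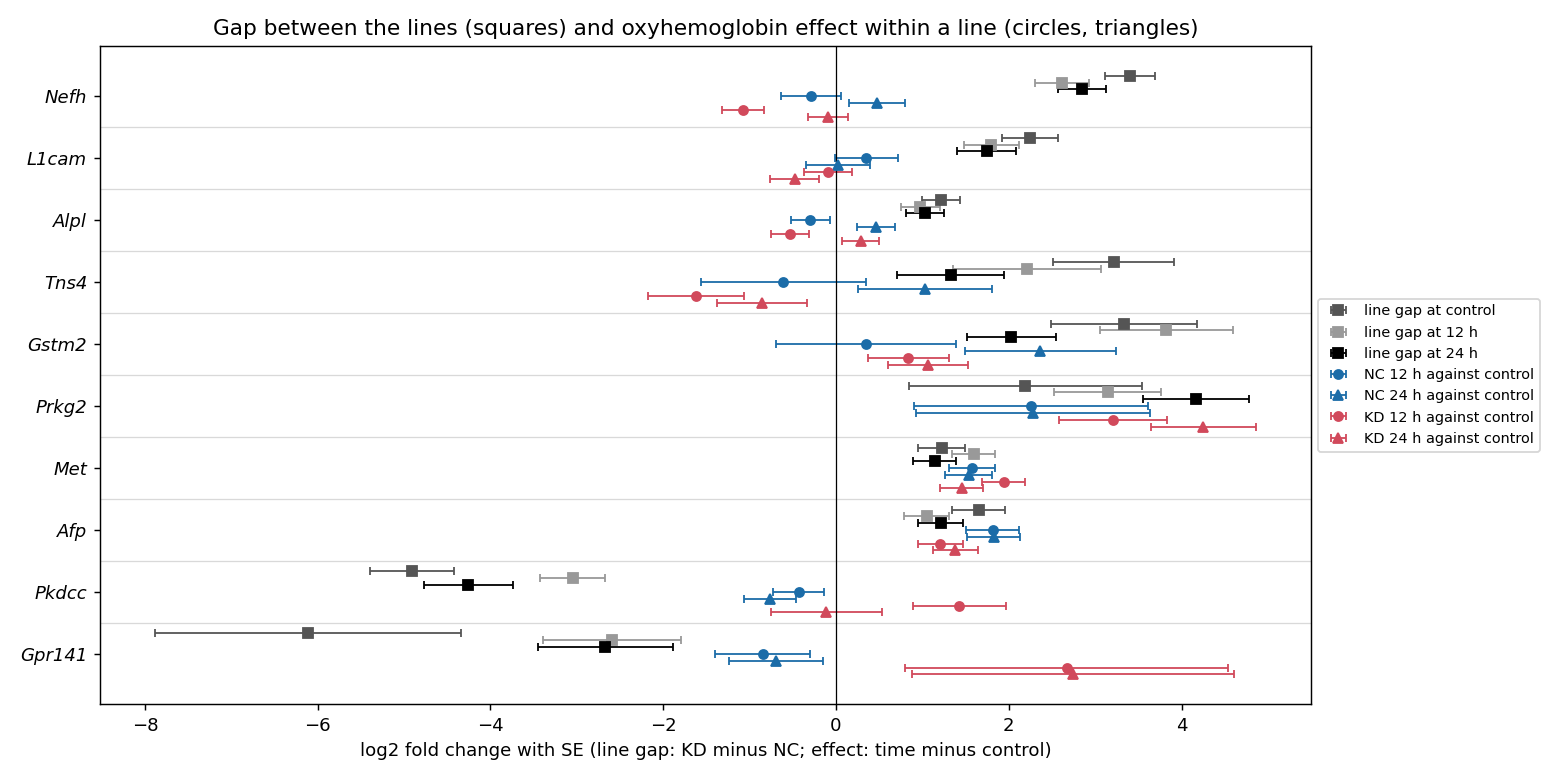
Line gap at each time (squares, KD-labelled minus NC) and effect of oxyhemoglobin within each line (circles 12 h, triangles 24 h; blue NC, red KD-labelled), in log2 fold change (horizontal axis) with SE. For Nefh, L1cam, Alpl and Pkdcc each square lies farther from 0 than each circle and triangle; for Met and Afp both kinds overlap, between 1.05 and 1.94.

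Set side by side, the line gap was larger than the effect of oxyhemoglobin for some of these genes and not clearly so for others. For Nefh, L1cam, Alpl and Pkdcc the smallest of the 3 gaps exceeded the largest of the 4 effects, as it did for 664 of 15996 tested genes (4.15%). In sizes on the log2 scale, the gaps of Nefh were 2.62 to 3.41 and its effects 0.09 to 1.08. For L1cam these were 1.74 to 2.25 and 0.02 to 0.48, for Alpl 0.97 to 1.21 and 0.28 to 0.54, and for Pkdcc 3.05 to 4.91 and 0.11 to 1.43. Tns4, Gstm2 and Gpr141 had a largest gap above their largest effect but did not meet the stricter condition in the main edgeR fit. That verdict moved with the setting. Gstm2 met the condition in each limma fit on TPM, and without NC control replicate 1 or NC 24 h replicate 3. Gpr141 met it with limma without a filter, and without KD control replicate 1 or 2. Tns4 met it without KD control replicate 3. Prkg2, Met and Afp had a largest fitted effect above their largest fitted gap. With SE these were 4.25 ± 0.61 against 4.16 ± 0.61, 1.94 ± 0.25 against 1.59 ± 0.25 and 1.83 ± 0.31 against 1.65 ± 0.31. Each gap shares a group of libraries with the effect beside it. At these SE the values do not set an order of gap and effect for the 3 genes. None of these differences was tested, because the gaps were used in the choice.

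Whether the gap itself changed with oxyhemoglobin was tested as the interaction of line and time, and none of the 10 genes passed at 12 h or 24 h (edgeR). Over all tested genes 12 (0.075%) passed at 12 h and 5 (0.0313%) at 24 h. These counts moved with the setting: 331 and 193 with the replicate block, 53 and 38 with DESeq2, and 46 and 33 without a filter. Leaving out 1 library gave 3 (without NC 12 h replicate 1) to 19 (without NC control replicate 1) at 12 h. At 24 h it gave 2 (without KD 24 h replicate 1 or 3, or NC control replicate 3) to 10 (without NC 24 h replicate 1). Genes chosen for a lasting gap favour small interactions, so this count does not show that the gaps were constant. At an unadjusted p under 0.05 there were 2 of 10 at each time: Pkdcc (1.86 ± 0.61, adjusted p = 0.457) and Gpr141 (3.52 ± 1.95, adjusted p = 0.751) at 12 h, Gpr141 (3.44 ± 1.94, adjusted p = 0.995) and Tns4 (-1.89 ± 0.93, adjusted p = 1) at 24 h. The share of all tested genes at this unadjusted threshold is not given here, so nothing is read from the 2 of 10. Single libraries moved the interaction values of these genes. Pkdcc was at 1.18 without KD 12 h replicate 1, and Tns4 at -1.24 without NC control replicate 2. Gpr141 was at 1.44 at 12 h without KD 12 h replicate 2 and at 5.37 without KD control replicate 3. At 24 h it was at 2.02 without KD 24 h replicate 3, 4.11 without KD 24 h replicate 1 and 5.28 without KD control replicate 3. The values without KD control replicate 3 depend on the prior count, since the other KD-labelled control libraries held 0 counts. DESeq2 also called 0 of the 10 at each time. Prkg2 had an interaction of 1.97 ± 1.48 at 24 h (adjusted p = 1, edgeR), and with limma on log2(TPM + 1) without a filter it was 1.01 (adjusted p = 0.00163), the 1 call made. Without NC control replicate 1 the edgeR value was 0.12 (adjusted p = 0.98), a value that depends on the prior count, since the other NC control libraries held 0 counts. In bulk RNA, fewer cells with a transcript and less transcript per cell cannot be told apart, for any of these differences.

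**Figure D3:**
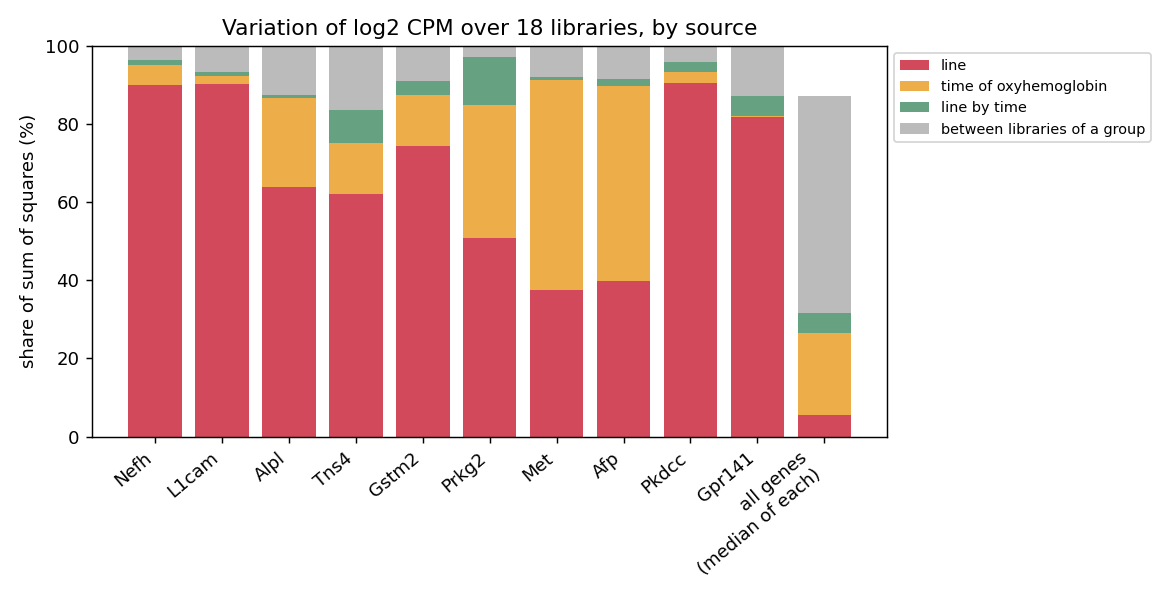
Share of the sum of squares of log2 CPM over 18 libraries (vertical axis, %) that went with line, time, line by time and the libraries within a group, for each gene; the last bar stacks the medians of each share over all tested genes and so need not reach 100. Line took 90.1% for Nefh and 37.6% for Met, where time took 53.8%.

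Divided by source over the 18 libraries, line took 90.1% of the sum of squares of log2 CPM for Nefh, 90.2% for L1cam and 90.5% for Pkdcc. It took 81.8% for Gpr141, 74.5% for Gstm2, 63.9% for Alpl and 62.1% for Tns4. Time took more than line for Met (53.8 against 37.6%) and Afp (49.9 against 39.9%). Prkg2 had the highest share of line by time, 12.4%, beside 50.9% for line and 33.9% for time. Over all tested genes the medians were 5.5% for line, 20.9% for time and 55.6% within groups; the share of line was part of the choice of the 10 genes. Pearson's r between pairs of genes was taken over the 18 libraries, which share line and time. It was -0.94 for Nefh and Pkdcc, which went opposite ways, and 0.85 for Met and Afp. It was 0.83 for Prkg2 and Afp, 0.81 for Prkg2 and Met, and 0.27 for Tns4 and Met. The genes were chosen for a line gap, so a large r between genes that vary mostly with line follows from the choice.

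By the deposited TPM, which allow levels of different genes to be set side by side, Alpl had means of 9.04, 7.73 and 11.6 TPM in NC and 22.3, 16.9 and 25.7 in the KD-labelled line, at control, 12 h and 24 h. It had the highest mean of the 10 in each group but NC control and NC 12 h, where Pkdcc was at 10.4 and 7.80 TPM. In the KD-labelled groups Pkdcc was at 0.356, 1.04 and 0.292 TPM. Nefh was at 14.4, 7.48 and 12.8 TPM in the KD-labelled groups, and Afp at 5.07, 12.6 and 12.4. Prkg2 was at 1.27 TPM and L1cam at 0.596 in KD-labelled libraries at 24 h. The gene lengths behind the TPM were longer than the exons of GENCODE M21 for all but Nefh (21573 against 7347 bases for L1cam), so these levels rest on an annotation that is not given here.

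**Figure D4:**
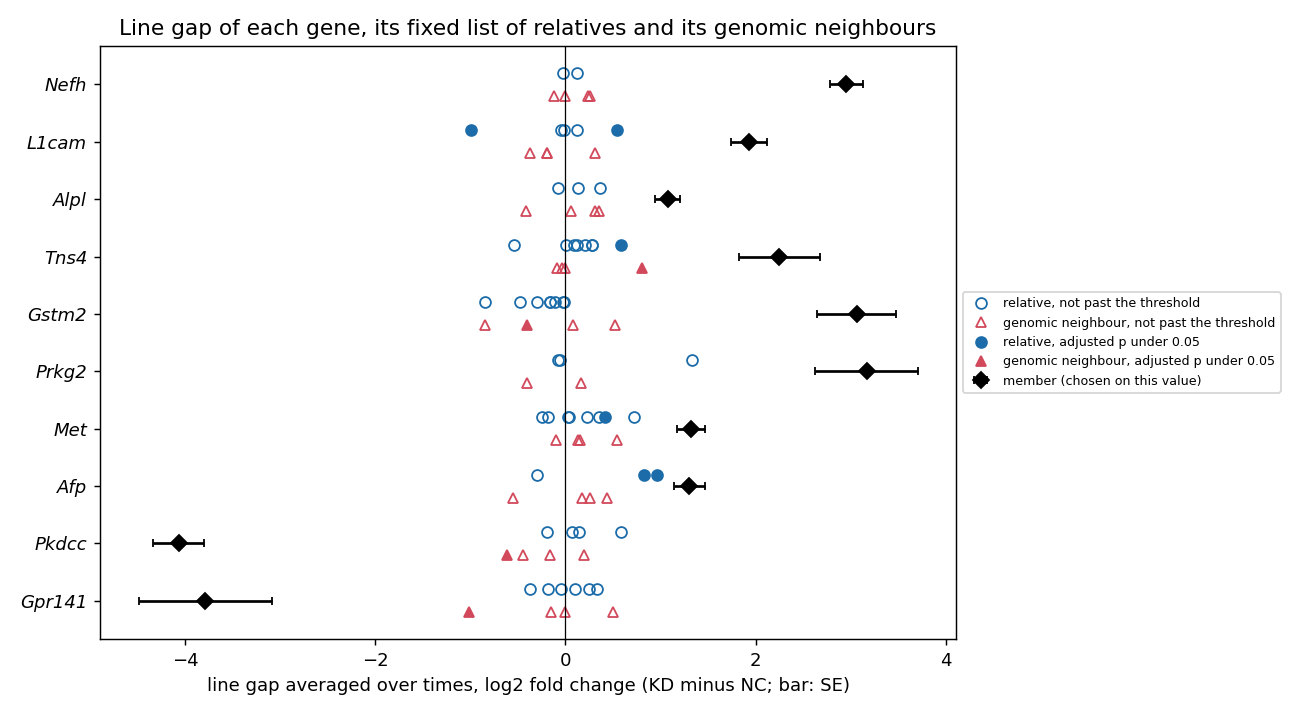
Line gap averaged over times (horizontal axis, log2, KD-labelled minus NC) of each of the 10 genes (diamonds, SE), of its tested relatives (circles) and of its genomic neighbours (triangles), filled where adjusted p was under 0.05. The called relatives and neighbours run from -1.01 to 0.96, and the diamonds lie at 1.07 or farther from 0.

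Genes related to the 10 by family or pathway were counted next. Of 113 listed relatives 50 were tested, and averaged over times 5 were higher and 1 was lower in the KD-labelled line (12% of the 50, beside 9.99% of all tested genes; 21 of 50 and 3902 of all tested genes with the replicate block), with a median gap of 0.03 beside -0.01. Zyx, a focal adhesion protein listed with Tns4, was higher by 0.58 ± 0.14 (log2, SE; adjusted p = 0.00789, edgeR), and Itgb3, an integrin partner of L1cam, by 0.54 ± 0.14 (adjusted p = 0.0185, edgeR). Nrcam, an L1 family member, was lower (-0.99 ± 0.26, adjusted p = 0.0158, edgeR). Its call was lost with limma on log2(TPM + 1) without a filter (-0.13, adjusted p = 0.271). It was also lost with edgeR when all libraries numbered 2 were left out (adjusted p = 0.0928). Plaur, the urokinase receptor listed with Met, was higher by 0.42 ± 0.11 (adjusted p = 0.0142, edgeR). Zbtb20, a repressor of Afp in liver, was higher by 0.82 ± 0.11 (adjusted p = 1.59e-05, edgeR), from 107 CPM in NC to 191 in KD-labelled libraries. Foxa1, a liver transcription factor, averaged 0.96 ± 0.32 (adjusted p = 0.0499, edgeR), but its gap was 2.42 at control, -0.25 at 12 h and 0.71 at 24 h (adjusted p = 0.025, 0.894 and 0.661, edgeR). The call on the average was lost, with adjusted p 0.0507 to 0.109 without any 1 of 15 libraries (all but KD control replicate 2, NC 24 h replicate 3 and NC control replicate 1). None passed among the intermediate filaments (Vim, 0.12), cyclic GMP signalling (Vasp, -0.06), secretory kinases (Fam20c, -0.19), class A receptors (Gpr132, -0.04), glutathione transferases (Mgst2, -0.01) and phosphatases (Ank, 0.13), each named for its most abundant gene.

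With oxyhemoglobin, 7 of the 50 relatives rose and 4 fell in NC at 12 h, and 2 rose and 2 fell at 24 h. In the KD-labelled line 13 rose and 4 fell at 12 h, and 8 rose and 3 fell at 24 h; the shares of all tested genes called in these 4 comparisons were given above. With the replicate block the counts were 18 and 16 in NC and 28 and 19 in the KD-labelled line, and in NC at 24 h the count was 7 without NC 12 h replicate 2. Among the relatives of Met, Plaur rose in both lines at both times (0.83 to 1.42, adjusted p 8.63e-06 to 0.00728, edgeR). Hgf, which encodes the ligand of Met, had 243 counts over all libraries, a gap of 0.73 ± 0.30 (adjusted p = 0.13, edgeR) and effects of -0.45 to 0.43, none past the threshold. Itgb3 rose in both lines at both times (1.07 to 2.2, adjusted p 5.68e-06 to 0.00375, edgeR). Hgf was named after its values were seen, as the ligand.

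The tested genes nearest the 10 on the chromosome, 38 within 500 kb, had a median absolute gap of 0.25 beside 0.20 for all tested genes, and 4 passed in the gap averaged over times (10.5%, beside 9.99%). Of the 4, 3 went in the direction of their neighbour. Epdr1, 129.8 kb from Gpr141, was at -1.01 ± 0.11 (log2, SE; adjusted p = 3.13e-06, edgeR), and AC134555.1, 136.9 kb from Pkdcc, at -0.61 ± 0.11 (adjusted p = 0.000472, edgeR). Igfbp4, a binding protein of insulin-like growth factors 11.3 kb from Tns4, was at 0.80 ± 0.20 (adjusted p = 0.0135, edgeR). Gm36211, 148.2 kb from Gstm2, went the other way (-0.41 ± 0.09, adjusted p = 0.00259, edgeR) and was lost with limma on TPM (adjusted p 0.137 to 0.19). Only 2 of the 38 neighbours passed in each limma fit, so not all 3 calls in the shared direction held there either.

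Genes with the most similar pattern were found by Pearson correlation over the 18 libraries with the mean standardized log2 CPM of the genes of each direction. Nearest the 8 genes higher in KD-labelled libraries were Gm43279 (r = 0.912), Tnfrsf21 (0.911), Bicdl1 (0.911) and Trem1 (0.889), a receptor of myeloid cells at 14.8 CPM in NC and 33.7 in KD-labelled libraries. Nearest Pkdcc and Gpr141 were Pcdhb16 (0.960), Zbtb46 (0.951), Gm37297 (0.939) and Ddah1 (0.937). Zbtb46, a transcription factor known from dendritic cells, was at 17.4 CPM in NC and 4.36 in KD-labelled libraries, and Ddah1, which degrades methylated arginines, at 2.21 and 0.0234 CPM. These libraries share line, time and depth, so the values describe likeness only.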

How the data were processed

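Per the submitters' processing notes, the tools were HISAT2 2.2.0, featureCounts, bcl2fastq and DESeq2, and the build GRCm38; no source used here says whether strand was counted. The authors deposited raw counts per gene, whole numbers without normalization. Dividing each count by the length in the same table and rescaling gave back the deposited TPM to within 4.89e-05. Groups and replicate numbers came from the sample titles.

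Counts were tested with edgeR 4.0.16 (R 4.3.3, limma 3.58.1): TMM factors, filterByExpr (minimum count 10; 15996 genes with 99.65% of counts), 1 mean per group, robust quasi-likelihood F tests over all 18 libraries and Benjamini-Hochberg adjustment over all tested genes, with a threshold of 0.05. SE are Wald standard errors. CPM are TMM-scaled. Chi-square per degree of freedom between libraries of a group was 4.5 to 17.3, and no library was treated as a duplicate. The procedure was tested on simulated data with independent libraries, a common spread for all genes and no changes among the genes of lowest CPM. That simulation therefore cannot tell how the test behaves for libraries that deviate together by number, or for genes at few counts. The 10 genes and all lists were chosen with earlier results of these data known.

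Libraries with the same number were tested for pairing through the correlation of their deviations from the group means. Every pair passed 0.1 within each line (lowest 0.108) and between the lines at 12 h (0.2), but not at control (0.07) or 24 h (0.095); what a number means is not labelled. Alternatives were RLE factors, no filter, DESeq2 1.42.0, a replicate block, only the compared groups, limma-trend on log2 TPM with a pseudocount of 1 or 0.1 and a mean TPM of at least 1, the first also without a filter, and each library left out in turn; leaving out all libraries numbered 2 was added after seeing the data. The pseudocount understates the change of low genes.

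Named were the 10 genes, Bak1, up to 3 called relatives per list by lowest p (otherwise the one with most counts), called neighbours among the nearest 2 tested genes per side within 500 kb, and the 4 most correlated genes per direction. Marker lists not named with a result had none called: astrocytes (0 of 4 tested; 0 to 1.13 CPM summed), oligodendrocytes (1 of 4; 1.98 to 8.41), fibroblasts (0 of 6; 0 to 1.3) and endothelium (2 of 4; 1.46 to 12.6). Positions came from GENCODE M21 and promoter windows from RefSeq, both GRCm38.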

Additional observations from a re-analysis of the deposited data

How the results depend on the processing

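The comparison of gap with effect gave 4 genes under RLE factors, no filter, DESeq2 and the block, 3 with only the compared groups (where 5 of the 10 genes could be fitted), 6 with limma on log2(TPM + 1) without a filter, and 4 to 5 leaving out 1 library. Limma with the filter on TPM gave 4 of the 6 genes it fitted, with Gstm2 and without L1cam. The replicate block gave 5 genes called in NC at 24 h in place of 2; it raised the relatives called to 21 for the averaged gap (from 6), 18 and 16 in NC at 12 h and 24 h (from 11 and 4) and 28 and 19 in the KD-labelled line (from 17 and 11), and the neighbours to 15 (from 4). Over all genes it gave 3902 for the averaged gap and 3948, 3023, 4600 and 3433 for the 4 effects. Limma with the filter on TPM fitted 6 of the 10 genes: it called 3 in the KD-labelled line at 12 h with log2(TPM + 1) and 2 with log2(TPM + 0.1), where NC at 24 h and the KD-labelled line at 24 h had 1 each. Without the filter it called 1 in NC at 24 h and 1 gap change at 24 h. Neighbours called were 2 in each limma fit and 9 without a filter; relatives called in NC at 24 h were 8 with DESeq2 and 4 to 7 leaving out 1 library. The cause of these shifts was not tested beyond the number of genes fitted. NC at 24 h had 748 genes called with only the compared groups and 802 without the libraries numbered 2. No gene's called effect reversed. Genes with few counts (Prkg2, Gpr141, Tns4 and Gstm2) set the limit of precision.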
